A study of Homo sapiens with 6 samples.

Results

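The caveolae coat genes are 8 genes of the 14232 that have a probe set of their own on the array: the caveolins CAV1, CAV2 and CAV3, the cavins CAVIN1, CAVIN2 and CAVIN3, the membrane ATPase EHD2 and the membrane-bending protein PACSIN2. They were chosen by symbol, and each is represented by the probe set with the highest mean signal over all arrays. All 8 genes had a probe set that carries their symbol alone. The set was put together with the CAV1 decrease in this comparison already known, so the CAV1 values and the values of its partners below are a description of a chosen set. RNA came from HCC827, an established cell line of human lung adenocarcinoma that carries an activating deletion in the receptor gene EGFR, and was measured on 6 Affymetrix human exon arrays. The 3 arrays labelled 3D hold cells embedded in Matrigel, a basement membrane extract, and the 3 arrays labelled 2D hold cells grown flat on an uncoated surface. For embedding, the paper describes spheroids formed in hanging drops. It also names HydroCell plates for spheroids and does not say which served for the arrays. The study's methods describe the embedding gel as a mixture of Matrigel with collagen type I. Both groups are the same line in the same kind of serum-containing medium, and the labels name no drug for either.

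Because by their labels the 3D cultures also had the matrix and the 2D cultures had none, growth form and matrix cannot be told apart. The labels do not say whether replicates are separate cultures, so each p-value refers to the spread among the arrays at hand, which may be technical. The values are log2 signals, and a difference of 1 on this scale is a doubling. Signals lay between 1.596 and 13.59 with a median of 6.26 on every array. Over the probe sets, which do not count as replicates, a pair of 3D arrays had Pearson's r of 0.956 to 0.974, a pair of 2D arrays 0.980 to 0.987, and a pair across the groups 0.943 to 0.975. 3D replicate 2 stood apart: limma, the linear model used for all tests across probe sets, gave it the lowest of the array weights at 0.314. The weights were 1.08 and 0.803 for 3D replicates 1 and 3, and 0.770 to 2.33 for the 2D arrays. The files hold no call of signal against background. Bulk RNA also cannot tell fewer cells with a transcript from less of it per cell.

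Caveolae are flask-shaped pits of the plasma membrane, common in endothelium, fat, muscle and alveolar type I cells. Caveolins are hairpin-shaped membrane proteins that bind cholesterol and build the scaffold of the pit, and cavins form the outer coat around it. EHD2 holds the neck of the pit at the cell surface, and PACSIN2 is an F-BAR protein that shapes the neck. The pits flatten when the membrane is stretched, and they are known for roles in mechanical protection, lipid handling and signalling. CAV1 and CAVIN1 are needed for caveolae outside muscle, while CAV3 takes the place of CAV1 in muscle.

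The promoter windows of the genes whose 3D arrays lay below the 2D arrays, with EHD2 as a coat gene whose arrays overlapped, are shown for the sequences upstream of these transcripts. The RefSeq promoter table (GRCh38.p14) held 6 of the 8 genes, and CAVIN1 and CAVIN3 were not among them. Each line gives the 250 bases before the first listed start, 5′ to 3′ on the strand of the gene. CAV1 is at chr7:116524759-116525008 (+), CAV2 at chr7:116499488-116499737 (+), CAVIN2 at chr2:191847089-191847338 (-) and EHD2 at chr19:47713172-47713421 (+). Capitals mark matches, on either strand, to the Sp1 box GGGCGG or to the TEAD site GGAATG.
CAV1: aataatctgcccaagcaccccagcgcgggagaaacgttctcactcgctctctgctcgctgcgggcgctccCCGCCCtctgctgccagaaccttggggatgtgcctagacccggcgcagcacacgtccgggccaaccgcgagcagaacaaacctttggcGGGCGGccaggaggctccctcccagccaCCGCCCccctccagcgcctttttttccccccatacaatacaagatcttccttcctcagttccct
CAV2: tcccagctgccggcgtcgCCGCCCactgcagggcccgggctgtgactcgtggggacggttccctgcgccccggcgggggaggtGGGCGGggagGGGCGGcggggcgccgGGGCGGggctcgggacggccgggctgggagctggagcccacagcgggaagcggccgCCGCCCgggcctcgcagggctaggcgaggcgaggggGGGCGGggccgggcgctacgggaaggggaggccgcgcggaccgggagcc
CAVIN2: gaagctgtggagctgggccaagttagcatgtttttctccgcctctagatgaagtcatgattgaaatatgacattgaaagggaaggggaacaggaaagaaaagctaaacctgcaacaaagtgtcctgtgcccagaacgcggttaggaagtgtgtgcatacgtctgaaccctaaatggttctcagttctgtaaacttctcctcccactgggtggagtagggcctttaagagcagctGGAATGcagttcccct
EHD2: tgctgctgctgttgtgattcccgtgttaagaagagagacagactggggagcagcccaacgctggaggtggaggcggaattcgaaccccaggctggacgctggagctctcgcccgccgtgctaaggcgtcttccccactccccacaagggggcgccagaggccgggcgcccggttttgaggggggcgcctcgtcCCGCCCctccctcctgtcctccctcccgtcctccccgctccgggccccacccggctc
The CAV1 and CAV2 windows lie on the same chromosome and the same strand, with CAV2 first. The CAV2 window held 6 Sp1 boxes and 35 CG pairs at a GC content of 83.2%, and the CAV1 window held 3 Sp1 boxes and 18 CG pairs at 63.6%. Both genes have further listed starts, where the composition differed: the second CAV2 start had 3 boxes at 70.0% GC, and the third CAV1 start had 2 boxes at 73.2% GC. The EHD2 window had 1 Sp1 box, 20 CG pairs and 69.6% GC. The CAVIN2 window differed in composition, with 0 Sp1 boxes, 4 CG pairs, 48.0% GC and 1 TEAD site close to the start. Over all 35116 windows of this length the median GC content was 58.0% and the median number of CG pairs was 11. An Sp1 box was found in 42.6% of these windows and a TEAD site in 11.9%. No match overlapped another in the windows printed. The same 4 windows held no match to the TATA box TATAAA (10.7% of all windows), the AP-1 site TGACTCA (4.2%), the E-box CACGTG (6.34%) or the forkhead site TGTTTAC (2.98%), which says only that these letters are not there. Of the genes not printed, PACSIN2 had 2 Sp1 boxes before the first of its 6 listed starts and CAV3 had 0. The windows before starts 3, 4, 5 and 6 of PACSIN2 each held 1 TEAD site and 0 Sp1 boxes. Those of starts 3, 4 and 5 overlap and hold the same site. A match is a run of letters and was not tested for binding.

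CAV1, the caveolin that scaffolds the pit outside muscle, was lower in 3D, and CAV2 and CAVIN2 had all 3 of their 3D arrays below all 3 of their 2D arrays without passing the threshold. The other 5 coat genes had overlapping groups. Of the 8 genes, 1 passed limma's test as lower in 3D and 0 as higher (2-sided, p-values adjusted by the method of Benjamini and Hochberg over all 22011 probe sets, threshold 0.05), where 0.236% of all probe sets passed as lower and 0.145% as higher. For 3 of the 8 genes the groups did not overlap with 3D lower, and for 0 with 3D higher, where this held for 10.0% and 12.7% of all probe sets. Since the set was put together with this contrast known, nothing is read from these shares. The median difference of the 8 genes was 0.034, and that of all genes was 0.071.

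**Figure D1:**
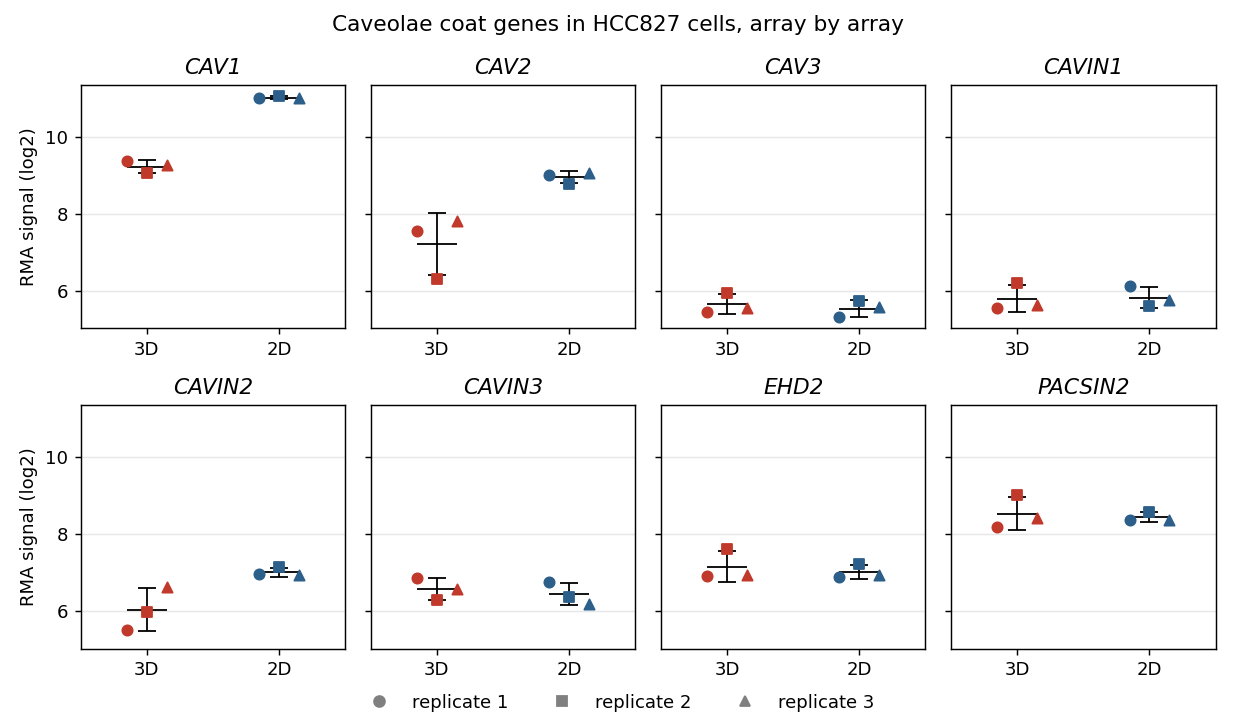
Log2 signal (y axis) of each of the 8 coat genes on each array, 3D in red left of 2D in blue, with the marker shape giving the replicate number, a dash at the group mean and a bar of 1 SD on either side (n = 3). The 3D arrays of CAV1, CAV2 and CAVIN2 all sit below their 2D arrays, and in the other genes the groups overlap.

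For CAV1 the 3D arrays gave log2 signals of 9.36, 9.05 and 9.27, against 10.997, 11.06 and 11.01 in 2D. The groups were far apart, and the 2D arrays lay close together. The means were 9.23 ± 0.16 in 3D and 11.02 ± 0.035 in 2D (SD, n = 3 each), a difference of -1.80 with a standard error of 0.15 and a 95% confidence interval of -2.15 to -1.45, or a signal 3.47-fold lower in 3D. In limma the adjusted p was 0.0150, and the CAV1 difference ranked 49 from the lowest of all probe sets. The mean CAV1 signal over all arrays was at percentile 95.4 of the probe sets, a position that also depends on how well its probes bind. With any single array left out the difference stayed between -1.86 and -1.71, but the call was lost without any of the 2D arrays: the adjusted p was 0.123 without 2D replicate 1, 0.0782 without replicate 2 and 0.109 without replicate 3, where 0 of all probe sets passed in limma and 2023, 3100 and 1812 had an unadjusted p under 0.05.

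CAV2, a caveolin that forms hetero-oligomers with CAV1 and depends on it to leave the Golgi apparatus, had signals of 7.54, 6.30 and 7.80 in 3D, against 9.01, 8.76 and 9.06 in 2D. All 3D arrays were below all 2D arrays, and 3D replicate 2 was the lowest by more than 1 on the log2 scale. CAV2 averaged 7.21 ± 0.80 in 3D and 8.94 ± 0.16 in 2D (SD, n = 3 each). The CAV2 difference of -1.73 (standard error 0.36, 95% confidence interval -2.58 to -0.89) was close in size to that of CAV1, with a spread between the 3D arrays several times larger, and its adjusted p in limma was 0.108. Without 3D replicate 2 the CAV2 difference was smaller, at -1.28, and passed with an adjusted p of 0.0374. It also passed with array weights, at -1.54 with an adjusted p of 0.0312. When only 1 probe set per gene was tested CAV2 passed with an adjusted p of 0.0463, and when a gene's probe sets were averaged with 0.0453. In 9 other settings of the limma fit CAV2 did not pass. These include the fits without any of the 2D arrays (adjusted p = 0.227 to 0.362) and without 3D replicate 1 (0.191) or 3 (0.0741).

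CAV3, the caveolin of heart and skeletal muscle, had signals of 5.44, 5.94 and 5.55 in 3D, against 5.30, 5.73 and 5.57 in 2D. The groups overlapped, and the CAV3 mean was at percentile 34.0 of the probe sets, in the dimmer part of the array. The CAV3 difference was 0.11 with a 95% confidence interval of -0.34 to 0.56 (limma, adjusted p = 0.802). A higher CAV3 signal beside the lower CAV1 signal was thus not detectable with these arrays.

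Among the cavins, CAVIN2 had the lowest difference. CAVIN2, a phosphatidylserine-binding coat protein that helps to curve and lengthen caveolae, had signals of 5.51, 5.98 and 6.61 in 3D, against 6.94, 7.14 and 6.92 in 2D. The groups did not overlap, with 3D replicate 3 nearest to the 2D arrays. CAVIN2 averaged 6.03 ± 0.55 in 3D and 7.002 ± 0.12 in 2D (SD, n = 3 each), a difference of -0.97 with a standard error of 0.27 and a 95% confidence interval of -1.60 to -0.34. The CAVIN2 signal was thus 1.96-fold lower in 3D by its means, and the adjusted p in limma was 0.191. It did not pass under any setting tried.

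CAVIN1, the cavin without which caveolae do not form, had signals of 5.54, 6.20 and 5.62 in 3D, against 6.11, 5.59 and 5.75 in 2D. The highest array of CAVIN1 was in 3D and so was its lowest. The CAVIN1 difference was -0.026 with a 95% confidence interval of -0.56 to 0.51 (limma, adjusted p = 0.965). With a mean at percentile 38.4 of the probe sets, CAVIN1 lay in the dimmer part of the array, together with CAV3.

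CAVIN3, a cavin that links caveolae to protein kinase C delta, had signals of 6.85, 6.29 and 6.55 in 3D, against 6.74, 6.37 and 6.18 in 2D. The CAVIN3 groups overlapped over most of their range. The CAVIN3 difference was 0.14 with a 95% confidence interval of -0.36 to 0.63 (limma, adjusted p = 0.778).

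The neck proteins showed the same overlap. EHD2, the ATPase that keeps caveolae at the surface, had signals of 6.91, 7.60 and 6.93 in 3D, against 6.88, 7.23 and 6.93 in 2D. Replicate 2 was the highest array of EHD2 within each group. The EHD2 difference was 0.13 with a 95% confidence interval of -0.39 to 0.66 (limma, adjusted p = 0.796).

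PACSIN2, the F-BAR protein of the neck, had signals of 8.18, 9.001 and 8.40 in 3D, against 8.35, 8.58 and 8.37 in 2D. Replicate 2 again gave the highest PACSIN2 signal within each group. The PACSIN2 difference was 0.094 with a 95% confidence interval of -0.43 to 0.62 (limma, adjusted p = 0.861). PACSIN2 is the only coat gene with a further probe set, one that it shares with ARFGAP3 and RPL5, and there the difference was -0.035 (limma, adjusted p = 0.933). Of all 6 arrays, 3D replicate 2 was the highest for 4 of the coat genes (CAV3, CAVIN1, EHD2 and PACSIN2) and the lowest for 2 of them (CAV1 and CAV2). Without it the differences of CAV3, EHD2 and PACSIN2 turned below 0, at -0.035, -0.095 and -0.14, so no direction is given for these genes.

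**Figure D2:**
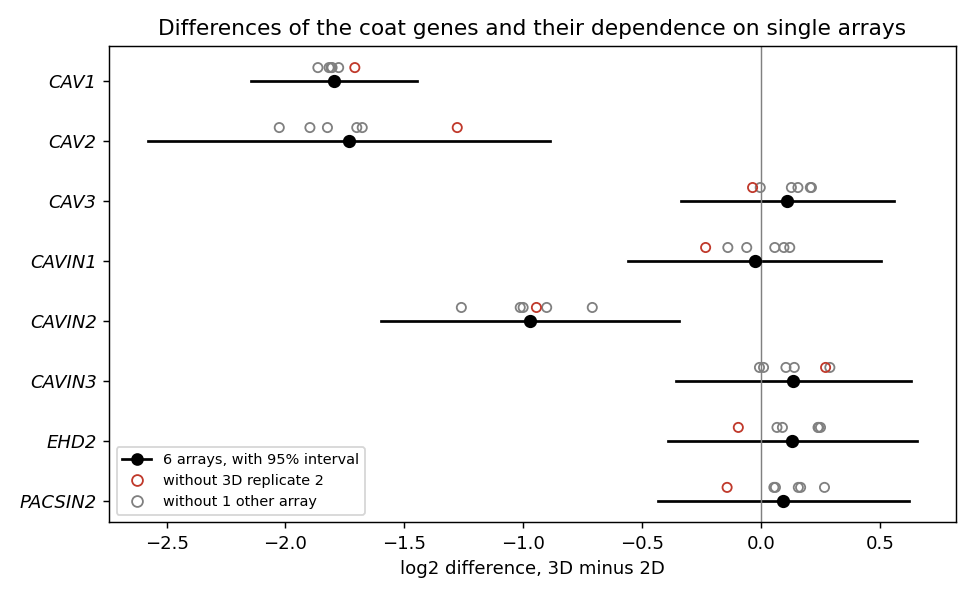
Log2 difference (x axis), 3D minus 2D, of each coat gene with its 95% confidence interval from limma (black), and open circles for the difference with 1 array left out (red without 3D replicate 2). The intervals of CAV1, CAV2 and CAVIN2 lie below 0, those of the other 5 genes include 0.

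The change of CAV1 was set beside those of its partners array by array, by the log2 signal of CAV1 minus that of a partner on the same array. Only changes of these values are compared, since the level of 1 probe set cannot be set against that of another. The values are a description with no test, since the set was chosen with the CAV1 decrease known. The relation of CAV1 to CAV2 was 1.82, 2.75 and 1.47 in 3D, against 1.99, 2.30 and 1.95 in 2D, and the groups overlapped. Its mean was 2.01 ± 0.66 in 3D and 2.08 ± 0.19 in 2D (SD, n = 3 each) and differed by -0.063, a shift smaller than the spread in 3D. On 3D replicate 2 the relation lay above all 2D arrays, and on 3D replicates 1 and 3 below all of them, and with an array left out the shift was between -0.43 and 0.21.

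Relative to the other 6 partners the CAV1 value was lower on every 3D array than on every 2D array. The mean shift was -1.93 against CAVIN3, -1.93 against EHD2, -1.91 against CAV3, -1.89 against PACSIN2 and -1.77 against CAVIN1. It was smaller against CAVIN2, at -0.82, where the relation averaged 3.19 ± 0.61 in 3D and 4.02 ± 0.088 in 2D (SD, n = 3 each). The differences of CAV3, CAVIN1, CAVIN3, EHD2 and PACSIN2 lay between -0.026 and 0.14, so against these partners the shift largely restates that of CAV1.

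**Figure D3:**
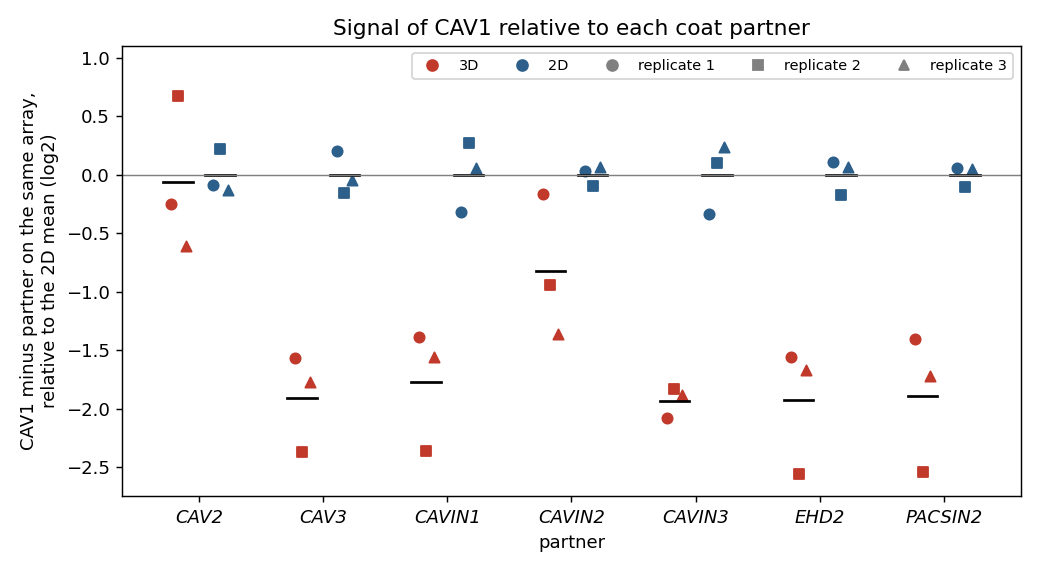
The y axis gives the log2 signal of CAV1 minus that of a partner on the same array, relative to the 2D mean of this value. It is shown for 7 partners, 3D in red left of 2D in blue, with lines at the means. Against CAV2 the 3D arrays scatter around the 2D arrays, and against the other 6 partners all 3D points lie below the 2D points.

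CAV1 and CAV2 are neighbours on chromosome 7, and the genes around them are shown for comparison. In the RefSeq order they follow MDFIC, TFEC and TES, and MET, CAPZA2 and ST7 come after them. Of these 6 genes 5 had a probe set of their own, ST7 had none, and 0 passed limma's test. The nearest gene on the CAV2 side is TES, which encodes testin, a LIM protein of focal adhesions. TES signals were 9.75, 9.60 and 9.97 in 3D, against 10.35, 10.25 and 10.35 in 2D. All 3D arrays of TES were below its 2D arrays, with a difference of -0.54 (standard error 0.16, limma, adjusted p = 0.198). On the CAV1 side, the receptor tyrosine kinase gene MET had signals of 10.72, 10.20 and 10.69 in 3D, against 10.80, 10.66 and 10.82 in 2D, and the groups overlapped. The MET difference was -0.22 (limma, adjusted p = 0.573), and -0.055 without 3D replicate 2. CAPZA2, an actin capping subunit, differed by -0.15 (adjusted p = 0.830) with overlapping groups, and its sign turned to 0.21 without 3D replicate 2. Farther out, MDFIC and TFEC differed by 0.13 (adjusted p = 0.666) and 0.21 (adjusted p = 0.559).

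**Figure D4:**
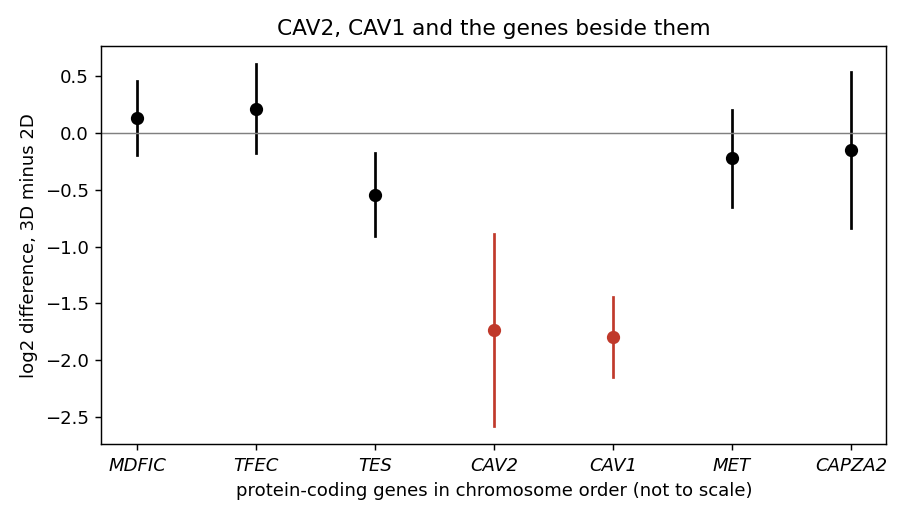
Log2 difference (y axis), 3D minus 2D, of CAV2, CAV1 and the measured protein-coding genes beside them in RefSeq order (x axis, not to scale), with 95% confidence intervals from limma. CAV2 and CAV1 lie near -1.73 and -1.80, TES at -0.54, and the other measured neighbours between -0.22 and 0.21.

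The genes most like CAV1 were looked up over the 6 arrays among 1072 probe sets with 1 symbol and an SD of at least 0.5. The highest correlations were those of FADS2, a fatty acid desaturase (r = 0.995), TGFB2, a ligand of the TGF-beta family (r = 0.994), INSIG1, a sterol-regulated protein of the endoplasmic reticulum (r = 0.992), FAT4, a large protocadherin (r = 0.989), and ZNF165, a zinc finger protein (r = 0.989). These values describe 6 points in a pair of separate groups, with shared arrays, so r follows mostly the gap between the groups, and no p is given. TGFB2 had signals of 8.32, 8.15 and 8.29 in 3D, against 9.60, 9.70 and 9.85 in 2D. Since these genes were picked for likeness to CAV1 on the same arrays, a lower 3D signal follows largely from the choice. Their differences and adjusted p-values are therefore a description and no separate result. The TGFB2 difference was -1.46 (limma, adjusted p = 0.0174). FAT4 differed by -1.84, INSIG1 by -1.45 and ZNF165 by -1.37, each with the same adjusted p of 0.0174, and FADS2 by -0.95 with an adjusted p of 0.0409. These calls were lost without any of the 2D arrays (adjusted p = 0.0782 to 0.247) and without 3D replicate 1 (0.0693 to 0.112), and that of FADS2 also without 3D replicate 3 (0.0589) and with a replicate block, a model term for the replicate number (0.0615). No coat partner was among these 5 genes, but CAV3, CAVIN1, CAVIN3, EHD2 and PACSIN2 varied too little to be searched.

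Among 6 lists of genes related to the caveolar coat by family or function, 1 gene, STOM, passed limma's test. Over all probe sets, 0.145% passed as higher in 3D and 0.236% as lower. The lists were chosen with earlier results of these data known, so nothing is read from this count. Of the paralogues of the coat genes, 5 of 6 were measured (CAVIN4 had no probe set), 0 passed (0 also at an unadjusted p under 0.05, where 7.17% of all probe sets were higher and 7.94% lower), 2 lay above 0 and 3 below, and the median difference was -0.076. EHD4, an endosomal relative of EHD2, was at -0.30 (adjusted p = 0.365) with its groups apart, and EHD3 was at 0.32 (adjusted p = 0.472). The PACSIN2 relatives PACSIN1 and PACSIN3 were at 0.47 (adjusted p = 0.365) and -0.15 (adjusted p = 0.681), both with overlapping groups.

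Of the list named raft scaffolds, made of the flotillins, the stomatins and their relatives, 8 of 8 were measured, with a median of -0.0034. At an unadjusted p under 0.05 in limma, 1 was higher and 0 lower. For 2 of them all 3D arrays lay above all 2D arrays, where this held for 12.7% of all probe sets. STOM, which encodes the hairpin membrane protein stomatin, was higher in 3D, with signals of 7.88, 8.06 and 8.01 in 3D, against 6.94, 6.84 and 6.58 in 2D. The groups were well apart, and the STOM difference was 1.20 (standard error 0.16, limma, adjusted p = 0.0329). The STOM call was lost without 3D replicate 1 or 3 (adjusted p = 0.0968 and 0.0549) and without any of the 2D arrays (0.122 to 0.193), and with the replicate block (0.0529), while the difference stayed between 1.09 and 1.27. The other 7 scaffolds did not pass: STOML2 was at -0.51 (adjusted p = 0.419), FLOT1 at -0.29 (0.445) and STOML1 at 0.24 (0.684).

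Of the genes for fission of caveolae and for their links to actin, 9 of 13 were measured by a probe set of their own. In limma 0 passed, and 0 had an unadjusted p under 0.05, while 1 lay above 0 and 8 below, with a median of -0.16. They ranged from MYO1C, a membrane-bound myosin, at -0.31 (adjusted p = 0.508) and the kinase gene ABL2 at -0.30 (0.481) to SRC, the kinase that phosphorylates CAV1, at -0.0043 (0.994) and the formin gene INF2 at 0.053 (0.930). Without 3D replicate 2 the SRC and INF2 differences changed sign, to 0.045 and -0.21.

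The clathrin coat, the other large coat of the plasma membrane, was measured with 16 of 16 genes, of which 0 passed in limma (at an unadjusted p under 0.05, 1 was higher and 1 lower), 9 lay above 0 and 7 below, with a median of 0.044. AP2M1, the medium subunit of the AP-2 adaptor, had its 3D arrays below its 2D arrays, at -0.76 (adjusted p = 0.123), and the small subunit gene AP2S1 was at 0.47 (0.398). FCHO2, a membrane-bending initiator of clathrin pits, was at -0.60 (0.457), and the light chain gene CLTA was at 0.47 (0.412) with its 3D arrays above its 2D arrays. FCHO2 was at -0.21 and AP2S1 at 0.23 without 3D replicate 2, and CLTA was at 0.18 without 3D replicate 1.

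Of the receptors and signalling proteins known to reside in caveolae, 17 of 19 were measured and 0 passed in limma (at an unadjusted p under 0.05, 1 was higher and 2 lower). Of these 17 genes, 9 lay above 0 and 8 below, with a median of 0.0055. ROR1, a receptor known in lung adenocarcinoma as a partner of CAV1 and CAVIN1, was the lowest of them. ROR1 signals were 6.96, 7.15 and 7.62 in 3D, against 8.33, 8.57 and 8.35 in 2D. The ROR1 groups did not overlap, and the difference of -1.18 (standard error 0.20) had an adjusted p of 0.0661 in limma. ROR1 passed when dim probe sets were left out (adjusted p = 0.0377), with array weights (0.0314) and without 3D replicate 3 (0.0395). It did not pass without any of the 2D arrays (0.212 to 0.271) or without 3D replicate 1 (0.171) or 2 (0.0911). The TGF-beta receptor genes lay on opposite sides, with TGFBR2 at -0.63 (0.192) and TGFBR1 at 0.48 (0.235), neither with overlapping groups, and the bradykinin receptor gene BDKRB2 was at 0.33 (0.527).

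Genes of membrane tension and repair, a task that caveolae share, were measured with 14 of 14, of which 0 passed in limma (at an unadjusted p under 0.05, 1 was higher and 2 lower), 8 lay above 0 and 6 below, with a median of 0.027. MYOF, a ferlin of membrane repair, was at -0.42 (adjusted p = 0.281) and EZR, which ties actin to the membrane, at -0.40 (0.295), both with 3D arrays below 2D arrays. ANXA1, an annexin, was at 0.40 (0.287) with 3D arrays above 2D arrays, and the ferlin gene DYSF was at 0.24 (0.497).

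**Figure D5:**
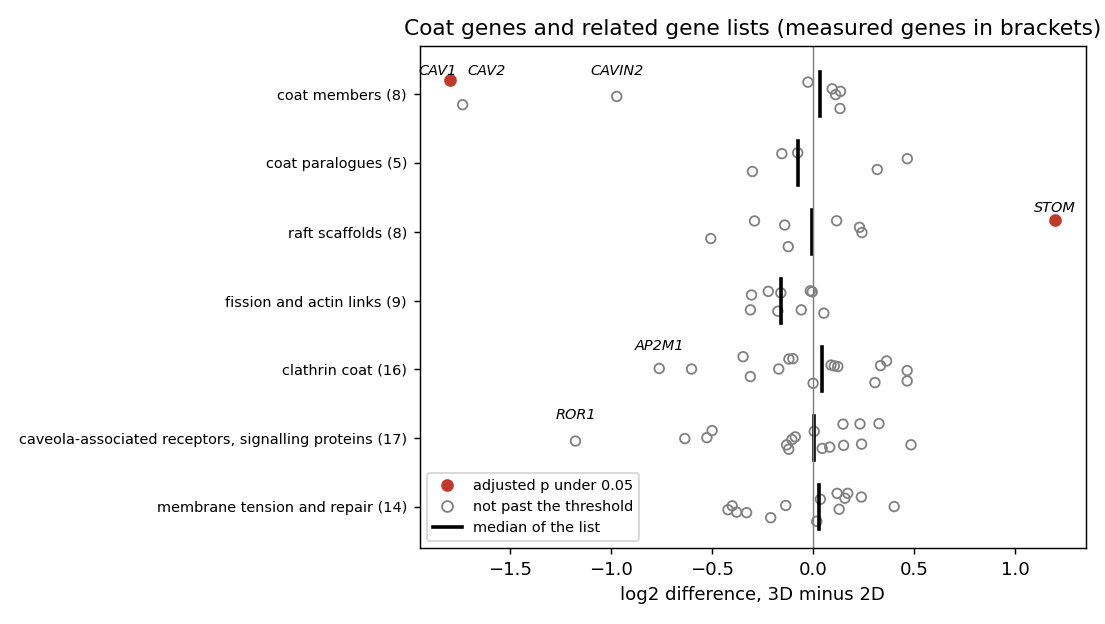
Log2 difference (x axis), 3D minus 2D, of the measured genes of the coat and of 6 related lists (y axis), with a bar at each median. Filled points passed limma at an adjusted p under 0.05, which are CAV1 and STOM, and each median lies between -0.16 and 0.044.

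Marker genes were read beside these results. Of the epithelial markers, 9 of 10 were measured, all between percentiles 79.4 and 96.2 of the probe sets, so the labelled epithelial line carried its defining markers. Their mean signal was 9.15, 9.37 and 9.10 in 3D, against 9.74, 9.84 and 9.76 in 2D, so it moved in the same direction as CAV1. All 9 lay below 0 with a median of -0.62, while 0 passed limma's test and 5 had an unadjusted p under 0.05, where 7.94% of all probe sets were lower. KRT19 was at -1.16 (adjusted p = 0.127), CLDN4 at -0.80 (0.225), EPCAM at -0.18 (0.664) and KRT8 at -0.13 (0.829). KRT19 passed with array weights, at -1.21 with an adjusted p of 0.0406, and EPCAM was at -0.0012 without 3D replicate 2. The part of this shift in the CAV1 result was not tested.

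Alveolar type I cells are the lung epithelial cells richest in caveolae. Of their markers 10 of 10 were measured, 0 passed in limma (0 also at an unadjusted p under 0.05), and 8 lay above 0 and 2 below, with a median of 0.10. RTKN2 was at -0.61 and EMP2 at -0.24, and HOPX and SEMA3B were at 0.24 and 0.27. Of the alveolar type II markers, 7 of 10 were measured, 0 passed in limma (5 were higher at an unadjusted p under 0.05, where 7.17% of all probe sets were) and all 7 lay above 0, with a median of 0.43. LAMP3 was the highest at 1.68 (adjusted p = 0.0607), followed by SLC34A2 at 0.94 (0.172), while SFTPD was at 0.27 and ABCA3 at 0.052. For 6 of the 7 genes, all but ABCA3, all 3D arrays lay above all 2D arrays, where this held for 12.7% of all probe sets. In mean signal the 7 genes lay between percentiles 32.2 and 92.0 of the probe sets. Only 2 of them were brighter than the median probe set. LAMP3 passed without dim probe sets (adjusted p = 0.0284), with the replicate block (0.0471), with array weights (0.00831) and without 3D replicate 2 (0.00878). It did not pass without any of the 2D arrays (0.184 to 0.260) or without 3D replicate 1 (0.166) or 3 (0.0772). SLC34A2 passed with array weights (0.0382).

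Markers of other cells that carry many caveolae were read in the same way. The mean signal of 9 fibroblast markers was 5.27, 5.22 and 5.06 in 3D, against 4.97, 5.06 and 4.88 in 2D, and none of them was above percentile 56.7. The mean of 10 endothelial markers was 5.43, 5.49 and 5.34 in 3D, against 5.22, 5.33 and 5.31 in 2D, up to percentile 72.7. The mean of 9 muscle and adipocyte markers was 5.63, 5.79 and 5.52 in 3D, against 5.33, 5.56 and 5.24 in 2D, up to percentile 59.3. Of these markers 0 passed limma's test (at an unadjusted p under 0.05, 1 endothelial and 1 muscle or adipocyte marker were higher). The medians of the fibroblast, endothelial and muscle and adipocyte lists were 0.19, 0.12 and 0.22, where that of all genes was 0.071. Their bearing on the CAV1 result was not tested. The fibroblast markers ranged from POSTN at 0.098 and THY1 at 0.12 to PDGFRB at 0.29 and LUM at 0.41. The endothelial markers ranged from KDR at -0.29 and PECAM1 at -0.051, which turned to 0.067 without 3D replicate 2, to EMCN at 0.38 and CLDN5 at 0.52. CKM and MYH11 were the lowest of the muscle and adipocyte markers, at 0.11 and 0.13, and PLIN1 and MYOD1 the highest, at 0.52 and 0.55.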

How the data were processed

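RNA of HCC827 cells was measured on 6 arrays, 3 of 3D and 3 of 2D cultures. The authors ran RMA from the R package oligo, whose version is not given, and deposited log2 signals of 22011 probe sets, which were used as given. RMA brings all arrays to the same distribution, so a shift shared by most transcripts cannot be seen. Of the probe sets, 14432 carried 1 symbol, 2408 several and 5171 none, by the platform's annotation. The sources used here do not give its genome build, and RefSeq (GRCh38.p14) served for names, gene order and promoters only. A gene was represented by the brightest probe set with its symbol alone.

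The difference of 3D minus 2D was fitted by limma 3.58.1 (R 4.3.3) over all probe sets (moderated statistics, 2-sided, Benjamini-Hochberg adjustment, threshold 0.05). CAV1 minus partner values are given as a description, without the permutation tests computed for them. Named were all 8 coat genes, in each other list the genes that passed and the 2 highest and 2 lowest differences, the 5 genes most like CAV1, and 3 neighbours on either side. The members and lists were chosen with earlier results of these data known. Alternatives were leaving out dim probe sets (mean below the 40th percentile), 1 probe set per gene, averaging a gene's probe sets, an intensity trend, a robust prior, array weights, a replicate block, leaving out each array, and a threshold of 0.01. The fit was tested on simulated data. Python 3.11.15 with matplotlib 3.10.9 drew the figures. Arrays have no read depth, and the precision is limited by how many there are.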

Additional observations from a re-analysis of the deposited data

How the results depend on the processing

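With 3 arrays in each group, leaving out an array changes which genes pass. The number of coat genes past the threshold, 1 in the fit as reported, was 2 with 1 probe set per gene, 2 with array weights, 2 when a gene's probe sets were averaged, 0 at a threshold of 0.01 and 0 to 2 with an array left out. The second gene was CAV2 each time. The number of all probe sets that passed, 84 as reported, was 152 without dim probe sets, 185 with 1 probe set per gene, 415 with array weights, 86 with the replicate block and 0 to 150 with an array left out. It was 0 without any of the 2D arrays and 7 without 3D replicate 1. Without dim probe sets CAV3 and CAVIN1 were not tested.

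The CAV1 difference was -1.86 to -1.71 with an array left out (adjusted p = 0.00897 to 0.123, limma) and -1.73 with array weights. The replicate numbers share no stated origin, so they were not taken as pairs. Deviations from the group means correlated at 0.0892, 0.374 and 0.223 for same-numbered arrays, and at -0.327 to 0.167 for arrays of different number. Each 3D array thus correlated most with the 2D array of its own number. Whether the numbers mark a shared origin was not tested. With the replicate block CAV1 passed with an adjusted p of 0.0284, and the count of coat genes stayed at 1. The count over the 6 related lists, 1 as reported, was 0 with the replicate block, where STOM had an adjusted p of 0.0529, 2 without dim probe sets, 2 with array weights and 0 to 1 with an array left out. The cause of these changes was not tested.

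Signs turned with an array left out for CAV3 (-0.035 to 0.21), CAVIN1 (-0.23 to 0.12), CAVIN3 (-0.0059 to 0.29), EHD2 (-0.095 to 0.25), PACSIN2 (-0.14 to 0.27), SRC (-0.16 to 0.10), INF2 (-0.21 to 0.21), KRT8 (-0.43 to 0.038), PECAM1 (-0.13 to 0.070), CAPZA2 (-0.38 to 0.21) and the change of CAV1 minus that of CAV2 (-0.43 to 0.21). Of the 58 named genes outside the coat, 31 had a difference that turned or moved by over 1.5 times with an array left out, 24 of them without 3D replicate 2, and 0 of the 31 had passed the threshold. With array weights signs turned for PACSIN2 (-0.015), SRC (0.091), INF2 (-0.043) and CAPZA2 (0.096). The shift of CAV1 relative to the other partners stayed below 0 with any array left out, at its smallest -0.56 against CAVIN2.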
